A study of Mus musculus with 14 samples.

Results

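The transcript of the tumour suppressor p53, those of its inhibitors Mdm2 and Mdm4 and those of 7 classical p53 target genes were followed in mouse embryonic stem cells (mESCs) with and without a point mutation in the m6A writer subunit METTL14. The 10 genes, Trp53, Mdm2, Mdm4, Cdkn1a, Ccng1, Trp53inp1, Bbc3, Pmaip1, Bax and Aen, were picked by symbol out of 52459 genes in the count tables, together with the m6A peaks that overlap their exons. WT cells were the E14Tg2a line. R255K cells were E14Tg2a cells carrying the METTL14 R255K substitution (arginine to lysine), made by CRISPR-Cas9 knock-in. How many R255K clones lie behind the libraries is not given in the sources used here. Both were grown in serum with LIF on gelatin, and for RNA lifetime sequencing both received 5 µg/ml actinomycin D, a blocker of transcription, for 0, 4 or 8 h. That experiment held 1 polyA RNA library per genotype and time. The m6A experiment (MeRIP-seq, sequencing of RNA fragments pulled down with an m6A antibody) held 2 immunoprecipitated and 2 input libraries per genotype, from which 1 peak list per genotype was deposited.

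p53 is a transcription factor that DNA damage and ribosomal stress stabilise as a protein. Its targets include its own brake, the ubiquitin ligase Mdm2, as well as genes that arrest the cell cycle and genes that trigger apoptosis. Mouse embryonic stem cells carry abundant p53 and a short G1 phase, and many p53 target mRNAs are short-lived. m6A, deposited on mRNA by the METTL3-METTL14 complex, is often placed near stop codons and in long exons and is known to speed the decay of many transcripts. Actinomycin D at high dose halts RNA synthesis, so a level that falls under the drug is usually read as decay. The drug is also a known activator of the p53 protein.

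Depth ranged from 13812160 to 18813640 counted reads per RNA library. Levels are FPKM, the deposited counts scaled to exon length and to all counted reads of the library, and every value therefore sets a transcript against the rest of its own library. No spike-in was used here, and with 1 library per genotype and time no difference could be tested. Intervals are 95% intervals that cover counting error only. Mettl14 itself was counted 681, 376 and 232 times in the WT series and 299, 280 and 209 times in the R255K series, but the changed base cannot be seen in gene counts. All 7 embryonic stem cell markers reached 1 FPKM, with summed levels between 824.0 and 1631.8 FPKM. Of 7 fibroblast markers 3 did, with sums between 2.12 and 8.24 FPKM, and Lum was at 0 in every library. Of 5 endoderm markers 4 reached 1 FPKM, with sums of 0.39 to 9.04 FPKM, and of 4 mesoderm markers 2 did, with sums of 0.18 to 3.85 FPKM. At 0 h the WT and R255K sums were 1631.8 and 1278.1 FPKM for stem cell and 2.12 and 6.99 FPKM for fibroblast markers. They were 9.04 and 5.91 FPKM for endoderm and 0.71 and 3.85 FPKM for mesoderm markers. All 4 ectoderm markers reached 1 FPKM, with sums of 116.7 to 179.2 FPKM, at 0 h 122.6 in WT and 151.4 in R255K. Their part in the results below was not tested.

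The peak list of WT cells placed 13 m6A peaks on exons of 7 of the 10 genes. The list of R255K cells placed 11 peaks on 6 of them. Over all genes the lists held 13994 exonic peaks in WT and 8863 in R255K. No exonic WT peak was found on Trp53, Ccng1 or Pmaip1, and Ccng1 and Pmaip1 had none in R255K either. The exons of the count table differ in part from the GENCODE exons used for peaks (3 of 7 match for Cdkn1a and 1 of 3 for Pmaip1), but the number of peaks on each of the 10 genes was the same with either. Of the WT summits 10 lay in coding sequence of some annotated transcript, 2 in a 3′UTR and 1 in a 5′UTR. The methyltransferase favours the DRACH motif, of which GGAC is the best known core. GGAC on the transcript strand occurred within 100 bp of the summit in 11 of the 13 WT peaks and in 10 of the 11 R255K peaks. Among all exonic peaks, the 201-bp windows around the summits held it in 79.0% of cases for WT and 82.4% for R255K. A match is a description of the sequence and not a mapped m6A site.

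The sequences below surround the GGAC nearest to the summit of a WT peak. Those of Mdm2, Mdm4, Trp53inp1 and Bbc3 do not reach the summit itself. Mdm2, Mdm4, Trp53inp1 and Aen were taken because their share left at 8 h differed widely between genotypes. Cdkn1a was added because its peaks were absent from the R255K list, and Bbc3 because it had the strongest peak. On Mdm2 the GGAC nearest to the R255K summit was another one (chr10:117690298-117690338). All are from mm10, written 5′ to 3′ on the transcript strand, with GGAC in capitals. The first is from the coding sequence of Mdm2, with the peak summit 183 bp before the stop codon. The second lies in the Mdm4 coding sequence, where the peak summit was 328 bp before the stop codon. The third lies in that of Trp53inp1, where the peak summit was 95 bp before the stop codon. The last 3 come from Cdkn1a and Aen coding sequence and from the Bbc3 3′UTR.
Mdm2 (chr10:117690404-117690444, minus strand): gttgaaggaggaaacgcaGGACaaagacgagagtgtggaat
Mdm4 (chr1:132992048-132992088, minus strand): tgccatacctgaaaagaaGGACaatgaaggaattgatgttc
Trp53inp1 (chr4:11169807-11169847, plus strand): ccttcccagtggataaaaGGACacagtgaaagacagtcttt
Cdkn1a (chr17:29098461-29098501, plus strand): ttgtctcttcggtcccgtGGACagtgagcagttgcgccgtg
Aen (chr7:78907305-78907345, plus strand): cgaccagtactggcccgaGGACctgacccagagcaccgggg
Bbc3 (chr7:16317331-16317359, plus strand): atgtagcatactGGACtgccagccttgcc

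Of the 13 WT peaks, 5 had no overlapping R255K peak, which is 38.5%. Among all 13994 exonic WT peaks the share was 48.0%, so the p53 genes did not stand out by this count. The peaks without an R255K counterpart were both Cdkn1a peaks, the Trp53inp1 peak, the middle Bbc3 peak and the second Aen peak. Fold enrichment here is the peak caller's ratio of immunoprecipitated signal to local background. The Cdkn1a peak in the 5′UTR (chr17:29093794-29094000) had a fold enrichment of 5.97, lay on bases shared with exons of the antisense gene AC167363.2 and held no GGAC near its summit. The Cdkn1a peak in coding sequence (chr17:29098319-29098587) was weaker at 2.76, the Trp53inp1 peak (chr4:11169660-11169982) stood at 3.36, the Bbc3 peak (chr7:16313505-16313945) at 2.17 and the Aen peak (chr7:78905682-78906199) at 3.84. All 5 lay below 6.17, the median over all exonic WT peaks. So did WT peaks with an R255K counterpart: those of Bax (5.12) and Aen (4.16, 4.84 and 5.64) and the first of Bbc3 (2.39). Only the Mdm2, Mdm4 and last Bbc3 peaks lay above it. When only WT peaks of at least 4-fold enrichment were counted, 1 of 8 lacked an R255K peak, against 42.0% of all such peaks.

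The 8 WT peaks with an R255K counterpart gave 9 overlapping pairs. Fold enrichment was lower in R255K in 6 of these and higher in 3, with a median ratio of 0.941 over the pairs. Over all exonic WT peaks with a counterpart the median was 0.782. There the R255K peaks overlapping the same WT peak were averaged first, so these medians are not computed alike. The Mdm2 peak (chr10:117690074-117690769) had a fold enrichment of 6.37 in WT and 5.998 in R255K. The Mdm4 peak (chr1:132991727-132992281) had 6.18 in WT and 8.58 in R255K. The first Bbc3 peak (chr7:16312318-16312519) was weak in both, at 2.39 and 2.36. The strongest peak of the group, on the 3′UTR of Bbc3 (chr7:16317042-16318046), stood at 12.9 in WT and 20.7 in R255K. The Bax peak (chr7:45466591-45466999), at the 5′ end of the gene, had 5.12 and 5.71. By contrast, the 3 Aen peaks with a counterpart were all lower in R255K. Their fold enrichment went from 4.16 to 3.17 for the first, from 4.84 to 3.26 for the third peak, and for the broad last peak on the 3′UTR from 5.64 to 3.37 and 4.05, since R255K had 2 narrower peaks inside it. The R255K list alone had a peak at the 5′UTR of Aen (chr7:78895991-78896199, fold enrichment 9.45) and a peak that touched an exon of Trp53 with its summit in an intron (chr11:69580442-69580657, 5.41). The lists carry no replicates, so the spread of these ratios between samples is unknown.

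**Figure D1:**
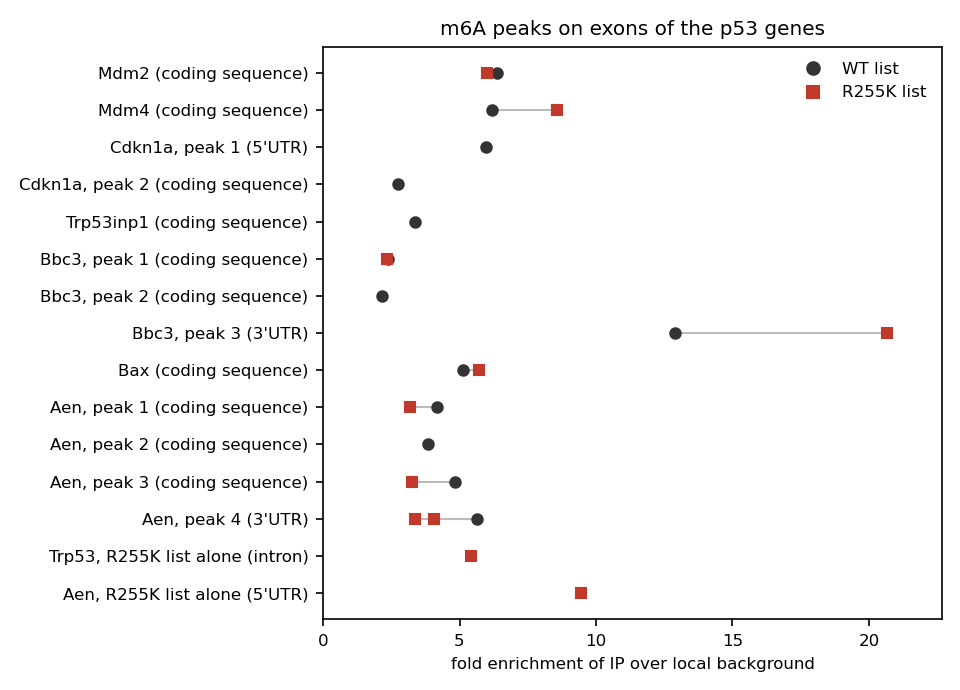
Fold enrichment (x axis, linear, ratio of immunoprecipitated signal to local background) of every exonic m6A peak on the 10 genes, WT as circles and R255K as squares, with overlapping peaks joined; the region named is that of the summit. The 5 rows with a circle alone are WT peaks without an R255K counterpart, and all but the 5′UTR peak of Cdkn1a lie below 4, while the Bbc3 3′UTR peak reaches 12.9 in WT and 20.7 in R255K.

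Before treatment, the p53 genes did not move as a group. On the log2(FPKM + 1) scale 1 of the 10 was at least 1.5-fold higher in R255K, Cdkn1a, and 2 were at least 1.5-fold lower, Mdm4 and Trp53inp1. The background was alike: 17.0% of the 11869 genes with a mean of at least 1 FPKM at 0 h were that much higher and 15.7% that much lower. All 10 genes passed this filter. The median log2 ratio of R255K over WT was 0.26 over the 10 genes and 0.05 over all genes compared. Of all genes compared, 2.11% had a lower log2 ratio than Mdm4 and 8.62% a lower one than Trp53inp1, while 93.8% had a lower one than Cdkn1a. In bulk RNA, fewer cells that express a gene and less of its RNA per cell cannot be told apart.

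**Figure D2:**
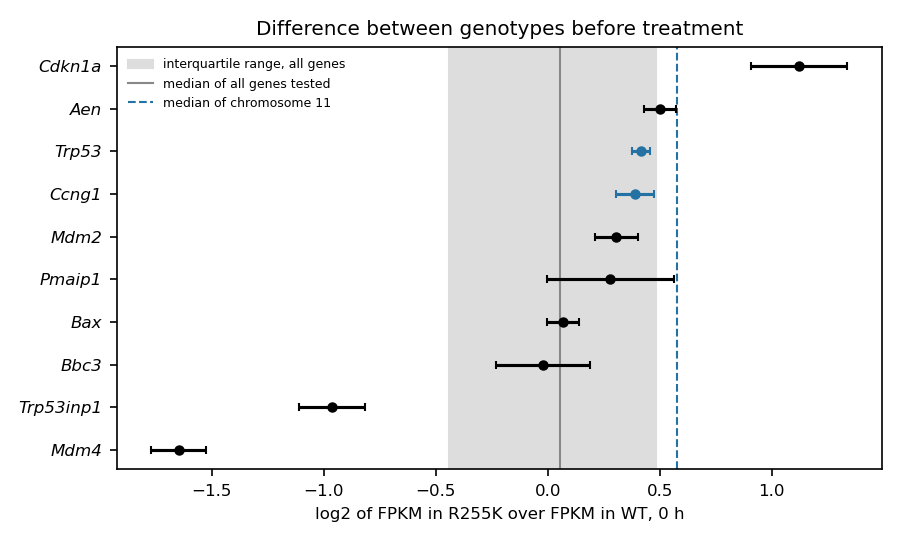
Log2 fold of FPKM in R255K over WT at 0 h for each gene, with 95% intervals for counting error, beside the median (grey line) and the interquartile range of all genes compared (grey band). Cdkn1a lies to the right, Aen at the edge and Mdm4 and Trp53inp1 to the left of the band, and Trp53 and Ccng1 (blue) lie left of the median of their chromosome 11 (dashed line).

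Trp53 itself was the most abundant of the 10 transcripts in every library, and its FPKM rose in WT and fell little in R255K under actinomycin D. Its FPKM was 131.6, 178.5 and 187.1 at 0, 4 and 8 h in WT and 175.7, 151.7 and 166.8 in R255K. At 0 h R255K stood above WT, and at 4 and 8 h it stood below. In the order of the 6 levels, the R255K value at 0 h and the WT value at 4 h were neighbours closer than counting error. The R255K level was 1.33 times that of WT at 0 h (1.30 to 1.37), 0.850 times at 4 h and 0.892 times at 8 h (0.869 to 0.915). The 0 h difference was smaller than that of the typical gene on its chromosome, since 984 genes of chromosome 11 had a median log2 ratio of 0.53 and Trp53 had 0.41. From 0 to 8 h the WT level went to 142.1% (138.2 to 146.2) and the R255K level to 94.9% (92.5 to 97.4). The WT increase depended on the scaling, with 85.9% when levels were set against ribosomal protein genes, 47.5% against Gapdh and 204.3% with TMM factors. Under all of these and with DESeq2 factors, less of the 0 h level was left in R255K than in WT, the ratio lying between 0.424 and 0.951 against 0.668 without rescaling. The genes with the most similar profile over the 6 libraries, Gm12183, Lrwd1 and Noc4l, differed from Trp53 by a root mean square of 0.029 to 0.035 in centred log2(FPKM + 1), out of 6756 genes.

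Mdm2, the ubiquitin ligase that marks p53 for degradation, gave one of the clearest contrasts. Its FPKM was 18.8, 2.98 and 1.47 at 0, 4 and 8 h in WT and 23.3, 15.7 and 11.1 in R255K, from 1669, 227 and 103 counts and from 1853, 1485 and 1065 counts. The genotypes started close together and then separated, with both later R255K libraries far above their WT counterparts. R255K was 1.24 times WT at 0 h (1.16 to 1.32), 5.27 times at 4 h (4.58 to 6.09) and 7.59 times at 8 h (6.20 to 9.39). WT retained 15.8% of the 0 h level at 4 h and 7.79% at 8 h, and R255K 67.4% and 47.8%. Half-lives computed over both time points were 1.78 h for WT (1.68 to 1.88) and 7.26 h for R255K (6.49 to 8.23). Most of the gap was in place by 4 h, because between 4 and 8 h the share kept was 49.2% in WT and 70.9% in R255K. As shown above, its coding-sequence m6A peak was present in both lists, at a fold enrichment of 6.37 in WT and 5.998 in R255K. The peak was 696 bp wide in WT and 422 bp in R255K, with a −log10 q of 132.7 and 72.7. Its part in the difference in decay was not tested. The nearest profiles were those of Alkbh5, an m6A demethylase, Abt1 and Hpdl, at distances of 0.157 to 0.183.

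Mdm4, the Mdm2 relative that binds and blocks the p53 activation domain, behaved differently. Its FPKM was 9.60, 6.44 and 4.23 in WT and 3.06, 4.51 and 3.61 in R255K. R255K was the lower genotype at each time, but the distance shrank from 0.319 times WT at 0 h (0.293 to 0.347) to 0.700 at 4 h and 0.853 at 8 h (0.778 to 0.935). The direction at 0 h held under every scaling tried, from -1.55 to -0.20 on the log2 scale, the last being relative to Gapdh. WT kept 44.0% of its 0 h level at 8 h, whereas R255K stood at 147.1% at 4 h and 117.7% at 8 h. The R255K shares rest on the low R255K level at 0 h. Starting at 4 h, 65.6% was left at 8 h in WT and 80.0% in R255K.

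Cdkn1a encodes p21, the inhibitor of cyclin-dependent kinases that carries p53-dependent arrest. Its FPKM was 6.97, 0.21 and 0.20 in WT and 15.2, 1.19 and 0.74 in R255K. R255K was the higher genotype at each time, 2.17 times at 0 h (1.87 to 2.53), 5.64 times at 4 h (2.54 to 14.8) and 3.79 times at 8 h (1.56 to 11.1). Of the 10 genes it was lost fastest in both genotypes, with 2.80% left at 8 h in WT and 4.89% in R255K. Half-lives were 1.05 h (0.902 to 1.25) and 1.37 h (1.26 to 1.498), a ratio of 1.30 (1.08 to 1.57). The WT libraries at 4 and 8 h held only 7 and 6 counts of it, and a difference in the share left at 8 h was not detectable at this depth (ratio 1.74, interval 0.719 to 4.23). Tmem199, Zfp574 and Zic2 had the nearest profiles, at distances of 0.166 to 0.220 among 6757 genes.

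Ccng1, cyclin G1, is a p53 target that takes part in Mdm2 control. Its FPKM was 33.3, 26.6 and 15.0 in WT and 43.6, 74.0 and 57.8 in R255K. The WT values descended with time, while both later R255K values were above the 0 h value. R255K was 1.31 times WT at 0 h, 2.78 times at 4 h and 3.87 times at 8 h (3.57 to 4.19). At 0 h its log2 ratio of 0.38 was below the median of 0.53 for its chromosome 11. WT kept 44.9% of the 0 h level at 8 h and R255K 132.7%. No m6A peak was listed on its exons in either genotype, and m6A signal outside the listed peaks was not examined.

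Trp53inp1, a stress protein that promotes p53 activity and autophagy, showed the widest gap of the 10 in what remained at 8 h. Its FPKM was 10.8, 3.67 and 0.60 in WT and 5.52, 9.62 and 5.02 in R255K, with 1215, 356 and 54 counts and 559, 1158 and 612 counts. WT lost most of it, and R255K had more at 4 h than at 0 h. R255K was 0.513 times WT at 0 h (0.463 to 0.567) but 2.62 times at 4 h and 8.32 times at 8 h (6.29 to 11.2). At 8 h 5.61% of the 0 h level was left in WT and 91.0% in R255K, a ratio of 16.2 (12.1 to 21.8), higher than in 99.7% of all genes compared. A gap, though a smaller one, was also seen without the 0 h libraries. From 4 to 8 h the share kept was 16.5% in WT (12.1 to 22.0) and 52.2% in R255K (47.3 to 57.7). That is a ratio of 3.18 (2.35 to 4.30), against 16.2 with the 0 h libraries. The lower 0 h level in R255K, on the other hand, depended on the processing, with a log2 ratio of -0.85 that came to -0.18 when the trend with GC content was removed and to 0.44 relative to Gapdh. Its only exonic peak, in WT, had no R255K counterpart.

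The apoptotic targets did not share a pattern. Bbc3 encodes PUMA, a BH3-only protein that neutralises the survival proteins of the BCL2 family. Its FPKM was 10.8, 2.67 and 0.75 in WT and 10.7, 1.70 and 1.33 in R255K. The genotypes were level at 0 h (0.986 times, 0.853 to 1.14), R255K was lower at 4 h (0.635, 0.454 to 0.885) and higher at 8 h (1.77, 1.06 to 3.05). The half-lives of 2.03 h (1.81 to 2.31) and 1.92 h (1.73 to 2.16) gave a ratio of 0.949, with an interval of 0.805 to 1.12. The interval, which covers counting error only, does not reach 1.5, a ratio that 68.8% of genes with a half-life in both genotypes exceeded. The 2 time points differed, with a half-life ratio of 0.76 from the 4 h library alone and 1.28 from the 8 h library alone. The share left at 8 h in R255K was 1.79 times that in WT (1.07 to 3.01). Bbc3 also had the peak of highest fold enrichment in the group, 12.9 in WT and 20.7 in R255K. Fold enrichment is set against local background in each genotype and is not an amount of m6A. A link between this peak and decay was not tested.

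Pmaip1, the BH3-only protein NOXA, had 4.34, 3.46 and 2.38 FPKM in WT and 5.27, 5.89 and 4.92 FPKM in R255K. R255K was above WT at each time, by 1.21 times at 0 h with an interval that reaches 0.998, by 1.71 times at 4 h and by 2.07 times at 8 h (1.61 to 2.67). The share left at 8 h was 54.9% in WT and 93.4% in R255K. No exonic peak was listed for it.

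Bax, the pore-forming protein of the mitochondrial outer membrane, was abundant, and its FPKM at 8 h was above the 0 h value in both genotypes. Its FPKM was 115.6, 137.2 and 171.7 in WT and 121.2, 120.2 and 131.4 in R255K. The genotypes were close at 0 h (1.05 times, 0.997 to 1.10), and R255K was the lower one at 4 h (0.876) and at 8 h (0.765, 0.731 to 0.801). The level at 8 h was 148.5% of that at 0 h in WT and 108.4% in R255K, a ratio of 0.730 that became 1.04 relative to ribosomal protein genes. Relative to those genes the 8 h level was 89.8% in WT and 93.3% in R255K, and relative to Gapdh 49.7% and 23.0%. Of its exon bases 12.2% are shared with the same-strand gene Gm45808. How reads on these bases were counted is not given, so the effect on its counts is unknown.

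Aen, an exonuclease that p53 induces during apoptosis, had 29.0, 21.6 and 12.2 FPKM in WT and 41.0, 39.0 and 37.4 FPKM in R255K. WT descended steadily and R255K stayed nearly flat, so the fold grew from 1.42 (1.35 to 1.49) at 0 h to 1.81 at 4 h and 3.06 at 8 h (2.85 to 3.28). The share left at 8 h was 42.2% (39.2 to 45.4) in WT and 91.1% (87.1 to 95.3) in R255K. WT half-life came to 7.62 h. That of R255K came to 57.2 h, with a wide interval of 35.6 to 145.6 h. The contrast was also seen from 4 to 8 h, with 56.7% kept in WT and 95.8% in R255K.

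**Figure D3:**
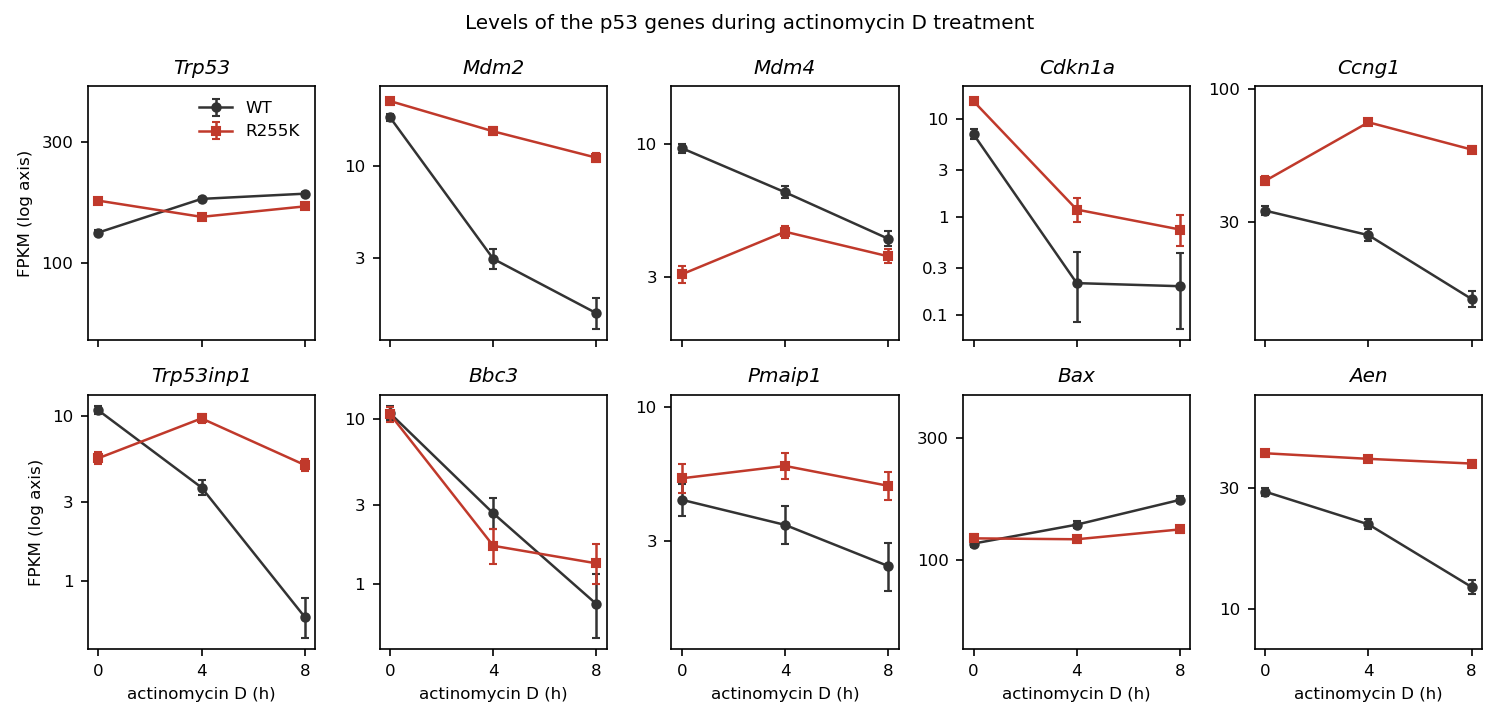
FPKM (log axis, a separate scale for each gene) of the 10 genes at 0, 4 and 8 h of actinomycin D in WT (circles) and R255K (squares), 1 library per point, bars being exact 95% Poisson intervals of the counts. The lines of Mdm2, Trp53inp1, Ccng1 and Aen separate with time, those of Bbc3 cross, and Trp53 and Bax do not decline in WT.

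Taking the 10 genes together, 7 were below 50% of their 0 h level at 8 h in WT, namely Mdm2, Mdm4, Cdkn1a, Ccng1, Trp53inp1, Bbc3 and Aen, where 42.6% of all genes compared were. In R255K 3 were, Mdm2, Cdkn1a and Bbc3, against 22.0%. The median share left was 43.1% in WT and 92.3% in R255K for the 10 genes, and 65.9% and 91.8% for all genes compared. As a measure added after the values were seen, the share left at 8 h was divided between genotypes. It was at least 1.5 times higher in R255K for 8 of the 10, all but Trp53 and Bax, and for 44.2% of all genes compared, with medians of 1.98 and 1.33. The 8 values ran from 1.70 for Pmaip1 and 1.74 for Cdkn1a over 1.79 for Bbc3, 2.16 for Aen, 2.67 for Mdm4, 2.95 for Ccng1 and 6.14 for Mdm2 to 16.2 for Trp53inp1. The median of all genes depended on the scaling, at 1.01 with TMM factors, 0.945 with DESeq2 factors and 1.89 relative to ribosomal protein genes. Beyond it, 5 of the 10 genes exceeded the median of all genes by at least 1.5-fold on any scaling of the libraries, Mdm2, Mdm4, Ccng1, Trp53inp1 and Aen, against 32.5% of all genes. Set against the median share of their genotype, 4 of the 10 were below 50% in WT (33.3% of all genes) and 2 in R255K (19.7%). Relative to that median, which no rescaling of a library alters, the ratio was 12.2 for Trp53inp1, 4.62 for Mdm2, 2.22 for Ccng1, 2.01 for Mdm4 and 1.62 for Aen, and 0.503 for Trp53 and 0.549 for Bax.

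**Figure D4:**
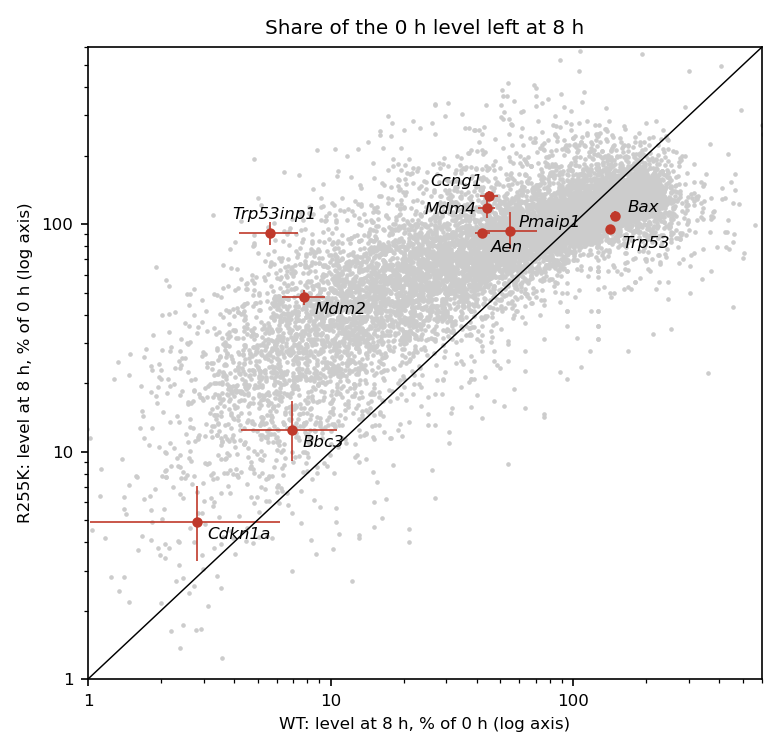
Share of the 0 h level left at 8 h in WT (x axis) and R255K (y axis), both in percent on log axes, for all genes compared (grey) and the 10 genes (red, with 95% intervals for counting error); the line marks equal shares. Trp53inp1 (5.61% and 91.0%) and Mdm2 (7.79% and 47.8%) lie far above the line, Cdkn1a (2.80% and 4.89%) near it and Trp53 and Bax below it.

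A half-life in both genotypes, which needs a falling level in each, could be computed for 4 of the 10, Mdm2, Cdkn1a, Bbc3 and Aen. The half-life ratio of R255K over WT was above 1.5 for 2 of these, Mdm2 (4.09, 3.58 to 4.66) and Aen (7.50, 4.05 to 13.9). The Aen value was unstable, at 53.8 with the GC trend removed, at 0.0079 relative to Gapdh and without an R255K half-life under DESeq2 factors. The Mdm2 value lay between 3.45 and 4.67 under the other settings but came to 1.08 relative to Gapdh. Over all 5542 genes with a half-life in both, 68.8% were above 1.5, with a median of 1.98. Without the 0 h libraries, an alternative chosen after seeing the data, 3 of the 10 genes kept at least 1.5 times more from 4 to 8 h in R255K, against 26.8% of all genes. In that interval 3 of the 10 fell below 50% in WT (24.0% of all genes) and 0 in R255K (3.97%). The genes that kept more were Trp53inp1 with a ratio of 3.18 (2.35 to 4.30), Bbc3 with 2.79 (1.54 to 5.03) and Aen with 1.69 (1.55 to 1.85). Mdm2 came to 1.44 (1.13 to 1.84) and Ccng1 to 1.39.

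Across all genes compared, the 0 h ratios and the 8 h shares varied with the base composition of the transcripts. Mdm2, Mdm4, Ccng1, Trp53inp1 and Pmaip1 belong to the quartile of genes with the lowest exonic GC content (38.6% for Trp53inp1 to 45.1% for Mdm2). In that quartile the median log2 ratio at 0 h was -0.38 and the median 8 h share was 46.4% in WT and 95.7% in R255K. In the quartile of highest GC content, which holds Bbc3 and Bax, these medians were 0.27, 73.9% and 88.6%. The ratio of 8 h shares had a median of 1.93 in the lowest and 1.14 in the highest quartile, whereas the ratio of the 4 to 8 h shares was 1.15 and 1.19. With the GC trend removed, the ratio of 8 h shares was 7.60 for Trp53inp1, 4.81 for Mdm2, 1.98 for Mdm4, 1.63 for Ccng1 and 1.03 for Pmaip1. The part of base composition in the remaining values was not tested.

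Other genes of the pathway were taken from 4 lists. Of 40 further p53 targets 33 reached 1 FPKM, of which 9 were at least 1.5-fold higher (17.0% of all genes compared) and 3 lower (15.7%) in R255K at 0 h. At 8 h 20 of the 33 were below 50% of the 0 h level in WT (42.6% of all genes) and 13 in R255K (22.0%), with median shares of 34.3% and 61.1%. In R255K 18 kept at least 1.5 times more (44.2% of all genes). Perp, a desmosomal protein of p53-dependent apoptosis, had the highest 0 h ratio at 3.07-fold (268 and 739 counts) and kept 130.4% and 124.9% at 8 h. Gdf15, a stress-induced cytokine, had the lowest at 0.270-fold, from 62 and 15 counts. Sesn1, a stress-induced inhibitor of mTORC1 signalling, carried the most WT peaks, of which 2 of 3 had no R255K counterpart, and kept 33.2% in WT and 81.4% in R255K. On the exons of this list 8 of 37 WT peaks lacked an R255K peak, where 48.0% of all exonic WT peaks did.

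Among 30 expressed regulators of p53, 3 were at least 1.5-fold higher and 7 lower in R255K at 0 h, beside 17.0% and 15.7% of all genes. At 8 h 18 of them kept at least 1.5 times more in R255K, beside 44.2% of all genes. Wrap53, whose gene lies head to head with Trp53 on chromosome 11, had the highest 0 h ratio at 2.01-fold. Prkdc, the catalytic subunit of DNA-dependent protein kinase, had the lowest at 0.221-fold, and its 8 h share was 37.3% in WT and 263.7% in R255K because its R255K count at 0 h was 215 and later 900 and 682. Trp53bp1, a double-strand break response protein, had 4 WT peaks, 3 of them without an R255K peak, and kept 76.8% and 117.9%. In the list 10 of 35 WT peaks lacked an R255K peak, again beside 48.0% of all.

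Of 17 expressed genes of the BCL2 family and apoptosome, 1 was at least 1.5-fold higher in R255K at 0 h (17.0% of all genes), Bok at 2.35-fold. At least 1.5-fold lower were 2 (15.7% of all genes), with Xiap, an inhibitor of caspases, lowest at 0.277-fold. Xiap kept 19.0% at 8 h in WT and 182.9% in R255K, again with a low R255K count at 0 h (240, then 775 and 528). Of this list's WT peaks 11 of 18 lacked an R255K peak (48.0% of all exonic WT peaks), among them the 3 on Bcl2, an mRNA with 10 counts in each 0 h library. The 11 partners of p21, cyclins and their kinases among them, had the highest median shares of the lists, 73.3% in WT and 103.4% in R255K. Ccnd2 was 6.85-fold higher in R255K at 0 h (189 and 1162 counts) and Ccnd3 0.459-fold (6280 and 2589 counts). Of 5 WT peaks in the list, 1 on each of 5 genes, 4 had no R255K counterpart, beside 48.0% of all exonic WT peaks. Cdk6, the first of these genes in list order, kept 25.6% in WT and 105.4% in R255K, and its peak was among the 4.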

How the data were processed

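mm10 count tables and peak lists of WT and R255K mESCs were used as deposited. According to the methods and the submitters' processing notes, the authors removed rRNA reads with Bowtie2 2.2.6, aligned the rest with HISAT2, kept unique reads with Picard 2.16.0 and SAMtools 0.1.09, and deposited raw counts per gene with the summed exon length. The counter, its strand setting and its annotation are not given in the sources used here. The authors called peaks against input with MACS2, and the deposited lists hold fold enrichment, −log10 p- and q-values, a score and the summit offset. How the 2 replicates were combined is not given.

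FPKM used summed counts as library size. Ratios between genotypes are on the log2(FPKM + 1) scale where stated, and genes with a mean of at least 1 FPKM at 0 h were compared. Counts under 3 were set to 3 in shares of the 0 h level. With A the FPKM at a time, ln(A0/A4) over 4 h and ln(A0/A8) over 8 h were averaged into a decay rate, and half-life was ln2 over that rate. Intervals of ratios of 2 counts were exact (Clopper-Pearson), and those of half-lives and of ratios of shares came from the delta method; all cover counting error only. Reads from an antisense gene cannot be told apart. Peaks were set on GENCODE vM21 exons (GRCm38) with at least 1 bp of overlap (bedtools 2.31.1), and sequences were read from the RefSeq GRCm38.p6 genome. Alternatives were TMM factors (edgeR 4.0.16), DESeq2 1.42.0 size factors, ribosomal protein genes (78) or Gapdh as reference, removal of the trend with GC content, other thresholds and single time points. The scripts were tested on simulated counts.

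All 10 genes are named. Of each list, the genes of highest and lowest 0 h ratio and the gene with the most WT exonic peaks (the first in list order where tied, as for p21 partners) are named, and for Trp53, Cdkn1a and Mdm2 the 3 nearest profiles among genes of at least 5 FPKM. Members and lists were chosen with earlier results of these data known.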

Additional observations from a re-analysis of the deposited data

Results flagged for a closer look

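For 3 genes both later libraries lay on opposite sides of the 0 h level in the 2 genotypes. This difference was not tested, as there was 1 library per genotype and time. The ratio of the share of the 0 h level left at 8 h, R255K over WT, was 0.668 for Trp53, where WT stood above and R255K below its 0 h level. For Trp53 the opposite sides at 8 h were lost under every rescaling: both genotypes stood above the 0 h level with TMM factors (204.3% in WT and 104.2% in R255K) and DESeq2 factors (231.5% and 110.0%), and both below it relative to ribosomal protein genes (85.9% and 81.7%) and Gapdh (47.5% and 20.2%). It was 2.67 for Mdm4 and 2.95 for Ccng1, where WT stood below and R255K above. These 2 genes kept opposite sides at 8 h under all rescalings but that to Gapdh, where both genotypes stood below.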

How the results depend on the processing

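Depth limited Cdkn1a most, with 7 and 6 counts in the later WT libraries, and the peak lists gave no spread between replicates. No paired analysis was possible because each genotype and time had 1 RNA library and the peak lists hold no replicate columns. The cause of the changes below was not tested. Rescaling moved the median 8 h share of all genes from 65.9% to 94.6% in WT with TMM, to 107.2% with DESeq2, to 39.8% with ribosomal protein genes and to 22.0% with Gapdh, whose own counts ran from 242 to 2357.
Of the 10 genes, those below 50% at 8 h in WT went from 7 to 4 with TMM and with DESeq2. They also went to 4 with the 4 h share and relative to the median of all genes, and to 3 from 4 to 8 h. The share of all genes went from 42.6% to 34.6% (TMM), 32.0% (DESeq2), 27.6% (4 h share), 33.3% (median) and 24.0% (4 to 8 h). In R255K the genes below 50% went from 3 to 10 relative to Gapdh and to 0 from 4 to 8 h. The share of all genes went from 22.0% to 99.0% and 3.97%. The genes with at least 1.5 times more left in R255K went from 8 to 5 with TMM, DESeq2, the 4 h share and relative to the median. They went to 4 with Gapdh and to 3 from 4 to 8 h. Among all genes this share went from 44.2% to 33.1%, 30.5%, 31.7%, 32.5%, 26.5% and 26.8%, in the same order of settings. A half-life ratio above 1.5, found for 2, was found for 1 with DESeq2 (Mdm2) and for 1 with Gapdh (Trp53inp1, while Mdm2 came to 1.08), for 4 with ribosomal protein genes and with the 8 h library alone, and for 6 with genes without decay given an infinite half-life. At 0 h the 1 higher gene (17.0% of all genes) became 8 with Gapdh (85.0%) and 3 with the GC trend removed (15.1%). The 2 lower (15.7% of all genes) became 0 with Gapdh (1.29%), 1 with the GC trend removed (11.6%) and 1 at a fold of 2 (5.92%). WT peaks without an R255K peak went from 5 of 13 (48.0% of all exonic WT peaks) to 1 of 8 at a fold enrichment of at least 4 (42.0%). Relative to Gapdh, the log2 ratio of Trp53inp1 at 0 h turned to 0.44 and the half-life ratio of Aen to 0.0079. The other 36 recomputed counts stayed within 1.5 times the value reported.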
